A study of Mus musculus with 18 samples.

Results

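The Hox genes encode homeobox transcription factors and sit in 4 clusters in the mouse genome. They were taken from the deposited table as every gene whose symbol is Hox followed by a cluster letter and a number, which gave 38 of 36451 genes. HoxA on chromosome 6 contributed 11 genes, HoxB on chromosome 11 (mm10, 96194316 to 96368256) 10, HoxC on chromosome 15 (102921103 to 103036852) 8 and HoxD on chromosome 2 (74668310 to 74765142) 9. Each has a protein-coding transcript type in the table. Hoxc12 was not analysed here.

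Colon tissue of mice was profiled by polyadenylated RNA sequencing in 18 libraries, 6 in each of 3 groups. In the AKK group Akkermansia muciniphila, a mucin-degrading gut bacterium, was given by gavage for 6 weeks, at 0.1 mL once a week. Neither the age of these mice nor whether they drank dextran sulfate sodium (DSS), a compound that injures the colon epithelium, is stated. Model mice had 3% DSS as drinking solution for 1 week and phosphate-buffered saline by gavage, with no age stated. Control mice were male C57BL/6J animals 6 weeks old, with no treatment stated. The series asks whether the bacterium acts on colitis through ferroptosis, an iron-dependent form of cell death, and its design text also names erastin, a ferroptosis inducer, without tying it to any of the 3 groups. The labels name the tissue as colon and give no position along it. They do not say that each library is a separate animal, so p-values measure only library-to-library spread, and some of that may be technical. Library numbers are not shared between groups, so a difference between cohorts and a difference between treatments cannot be told apart.

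Hox genes are known for marking position along the head-to-tail axis of the embryo, and many stay active in the adult gut. Within a cluster, the gene order along the chromosome follows the order of the anterior limits of expression: genes with low paralog numbers reach far forward and genes of the highest paralog number, group 13, are confined to the tail end. In the gut, group 13 genes are known for the development of the hindgut and the anorectal region, and CDX factors act upstream of several Hox genes.

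Total counts were 60665457 to 82589848 in AKK libraries, 58841661 to 79147073 in Model libraries and 53873744 to 65705141 in Control libraries. Epithelial genes such as Krt8 were abundant in every library, with the summed level of 8 epithelial markers at 3062 to 3821 FPKM (fragments scaled by transcript length and library size) in AKK, 982 to 4042 in Model and 3889 to 5917 in Control. Libraries that stood apart were Model_1337, where 6 squamous keratin and related genes summed to 5802 FPKM where no other library passed 1.79 FPKM, and Control_2286, where the ileal bile acid-binding protein gene Fabp6 was at 187 FPKM and nowhere else above 5.74 FPKM. Model_1341 had 17.0% of its counts from mitochondrial genes. The Hox calls, the correlations of Hoxa13 and the calls among the lists of other genes are also given without Model_1337 and Control_2286.

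Levels differed mainly by cluster. A gene was tested where it reached at least 1 FPKM in at least 6 libraries, and 23 of the 38 Hox genes passed, 9 of HoxA, 9 of HoxB, 0 of HoxC and 5 of HoxD. The 15 others were 2 HoxA, 1 HoxB, 8 HoxC and 4 HoxD genes, Hoxd12 and Hoxd13 among them. A library's HoxC genes together reached 0.0715 to 2.203 FPKM, against 12.7 to 112 FPKM for HoxA and 28.7 to 127 FPKM for HoxB.

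**Figure D1:**
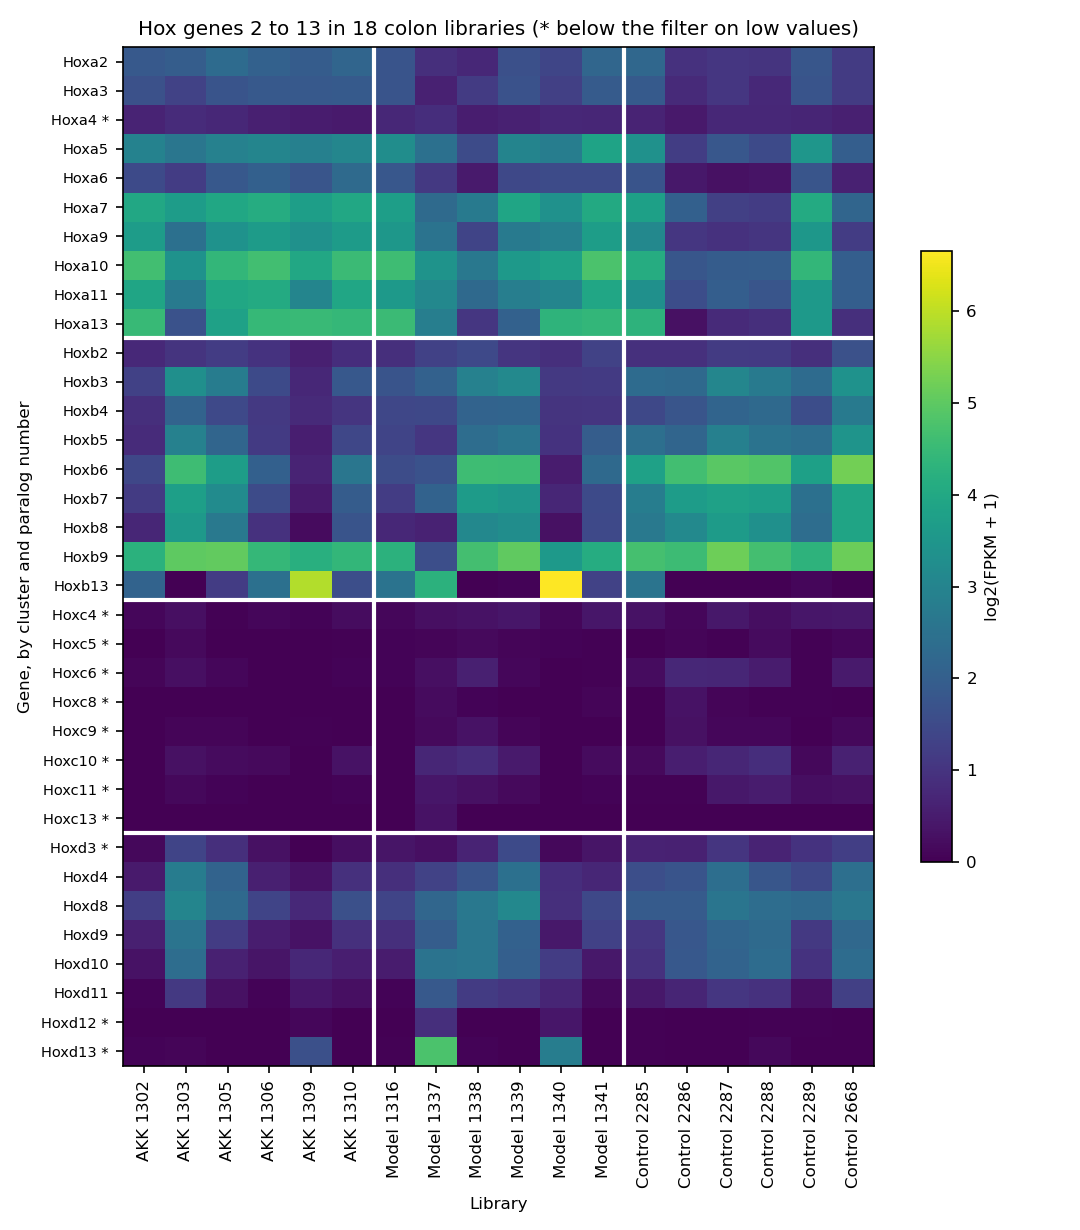
Level of the Hox genes with paralog numbers 2 to 13, log2(FPKM + 1), in each of the 18 libraries (columns, AKK, Model, Control), with genes in rows by cluster and paralog number; an asterisk marks genes below the filter. The posterior HoxA genes are bright in 5 AKK libraries and dark in 4 of the 6 Control libraries, where Hoxb6, Hoxb7 and Hoxb8 are bright.

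In HoxA the gene with the highest median was Hoxa10 (ENSMUSG00000000938, chromosome 6, 52231197 to 52240795), known for patterning of the lumbar spine and the uterus. Its lowest, median and highest values were 9.61, 21.2 and 24.2 FPKM in AKK, 5.36, 12.1 and 26.5 FPKM in Model, and 2.44, 2.94 and 20.3 FPKM in Control. The groups overlapped, because Control_2285 and Control_2289 stood at 16.5 and 20.3 FPKM while the other 4 Control libraries lay between 2.44 and 2.95 FPKM. Hoxa7, Hoxa9 and Hoxa11 had the same split, each high in Control_2285 and Control_2289 and low in the other 4 Control libraries. The anterior HoxA genes Hoxa2, known for the second pharyngeal arch, and Hoxa3, known for the thymus and parathyroid, were lower, with medians over the 18 libraries of 2.36 and 2.16 FPKM. Summed over the cluster, HoxA reached 45.5, 94.7 and 106 FPKM (lowest, median and highest) in AKK, 22.2, 60.7 and 112 FPKM in Model, and 12.7, 16.4 and 86.7 FPKM in Control.

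In HoxB the gene with the highest median was Hoxb9 (ENSMUSG00000020875, chromosome 11, 96271457 to 96276595), which acts with its paralogs in patterning of the thoracic skeleton. It had 17.3, 20.4 and 32.4 FPKM in AKK, 2.04, 17.3 and 31.5 FPKM in Model, and 18.7, 24.8 and 35.4 FPKM in Control (lowest, median and highest). The groups overlapped, and the value of 2.04 FPKM was that of Model_1337 alone, with the other 17 libraries at 11.1 FPKM or more. Hoxb6 (ENSMUSG00000000690, chromosome 11, 96292476 to 96301569) was named after its values were seen. Its lowest, median and highest values were 0.590, 4.10 and 23.0 FPKM in AKK, 0.410, 3.00 and 23.1 FPKM in Model, and 12.9, 26.1 and 37.1 FPKM in Control. It was high in AKK_1303, AKK_1305, Model_1338 and Model_1339 and in every Control library, so that here too the groups overlapped. The HoxB sums were 28.7, 55.4 and 97.6 FPKM in AKK, 31.8, 58.1 and 117 FPKM in Model, and 51.6, 83.3 and 127 FPKM in Control.

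In HoxD the highest median was that of Hoxd8 (ENSMUSG00000027102, chromosome 2, 74704615 to 74707933), at 0.698, 1.84 and 7.15 FPKM in AKK, 0.847, 2.68 and 7.601 FPKM in Model, and 2.78, 4.02 and 5.29 FPKM in Control (lowest, median and highest). AKK_1303 and Model_1339 were its highest libraries, and the groups overlapped. In HoxC it was Hoxc4, at 0.0270, 0.0796 and 0.219 FPKM in AKK, 0.0866, 0.222 and 0.316 FPKM in Model, and 0.0922, 0.284 and 0.358 FPKM in Control. At this level Hoxc4 lay below the filter in all 18 libraries.

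**Figure D2:**
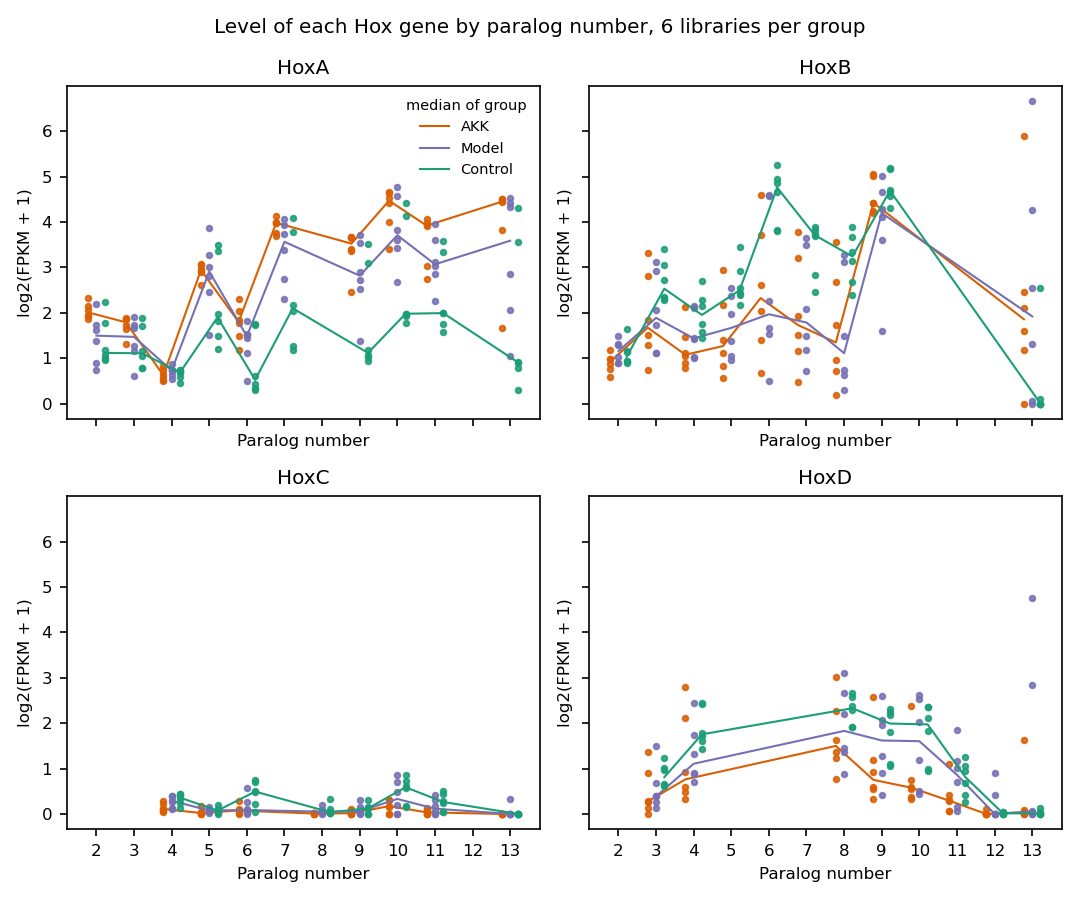
Level of each Hox gene, log2(FPKM + 1), against its paralog number from 2 to 13, 1 panel per cluster; points are libraries and lines join the medians of AKK, Model and Control (6 libraries each). The Control median of HoxA lies under both other medians at paralog numbers 5 to 13, and that of HoxB lies over both at numbers 3 to 9.

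Of the group 13 genes, the tail end of each cluster, Hoxa13 and Hoxb13 passed the filter and had the largest within-group SD of the 23 tested Hox genes. Hoxa13 (ENSMUSG00000038203, chromosome 6, 52257694 to 52260880), known for hindgut, limb and urogenital development, had 21.6, 2.19, 13.1, 21.0, 21.8 and 20.6 FPKM in AKK_1302, AKK_1303, AKK_1305, AKK_1306, AKK_1309 and AKK_1310. In Model_1316, Model_1337, Model_1338, Model_1339, Model_1340 and Model_1341 it had 22.2, 6.21, 1.06, 3.21, 19.0 and 20.5 FPKM. In Control_2285, Control_2286, Control_2287, Control_2288, Control_2289 and Control_2668 it had 18.9, 0.230, 0.726, 0.877, 10.9 and 0.857 FPKM. Thus 5 of 6 AKK, 3 of 6 Model and 2 of 6 Control libraries lay above 10 FPKM, and each group held both high and low libraries. Group means (with SD, n = 6 each) were 16.7 ± 7.84 in AKK, 12.03 ± 9.54 in Model and 5.41 ± 7.78 FPKM in Control.

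Hoxb13 (ENSMUSG00000049604, chromosome 11, 96194316 to 96197447), known for the prostate and the end of the axis, lies apart from the other HoxB genes at the far end of its cluster. In the AKK libraries, in the same order, it had 3.33, 0, 1.27, 4.51, 58.9 and 2.04 FPKM. The Model libraries had 4.80, 18.3, 0, 0.0418, 100.3 and 1.47 FPKM, and the Control libraries 4.88, 0, 0, 0, 0.0787 and 0 FPKM. AKK_1309, Model_1337 and Model_1340 were far above the rest, 4 of 6 Control libraries were listed at 0, and the groups overlapped.

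Hoxd13 (ENSMUSG00000001819, chromosome 2, 74668310 to 74671599), known for digits and for the anal sphincter in mice, was at 26.2 FPKM in Model_1337, 6.11 FPKM in Model_1340 and 2.102 FPKM in AKK_1309, and at 0.101 FPKM or less in the other 15 libraries. Its neighbour Hoxd12 had its highest values in the same 3 libraries, 0.877, 0.333 and 0.0817 FPKM, and Evx2, the homeobox gene next to Hoxd13, was above 0 in those 3 alone. Hoxc13, known for hair follicles and nails, was at 0.247 FPKM in Model_1337, the library with squamous keratins, and at 0 in the other 17. The 3 libraries with Hoxd13 were also the lowest in Cdx2, a master regulator of intestinal epithelium, at 55.9 FPKM in AKK_1309, 20.9 FPKM in Model_1340 and 0.904 FPKM in Model_1337, against 63.3 FPKM or more in the other 15. They were the lowest as well in the summed level of 8 small intestine markers, at 94.2, 29.4 and 4.34 FPKM in the same order, against 127 FPKM or more elsewhere. Control_2286 had the highest sum of these markers, 872 FPKM, and the lowest Hoxa13. These coincidences were seen after the values were examined, and their part in the Hox levels was not tested. In bulk tissue, fewer cells of a type and less RNA per cell cannot be told apart.

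Promoters of the Hox genes were read from RefSeq on GRCm38.p6, the assembly that mm10 names, as the 250 bases before the start. RefSeq matched 22 of the 38 genes, with 24 promoters. They were searched on both strands for TTTATG, the core bound by CDX factors, and for CAATAAA and TCGTAAA, bound by group 13 proteins. The window of Hoxb8, a mid-cluster gene whose level ran against that of Hoxa13 across libraries, held all 3 motifs, at -176, -157, -143 and -120 bases from the start, and is shown with Hoxa7, the HoxA window with TTTATG, at -236 and -173 bases. Those of Hoxa13 and Hoxd13, the group 13 genes with a window, held none and are shown for contrast. Capitals mark the matches on either strand (CATAAA and TTTATTG are the reverse complements of TTTATG and CAATAAA). The windows are chr11:96281655-96281904 (plus strand), chr6:52218574-52218823 (minus), chr6:52260881-52261130 (minus) and chr2:74667975-74668224 (plus).
Hoxb8: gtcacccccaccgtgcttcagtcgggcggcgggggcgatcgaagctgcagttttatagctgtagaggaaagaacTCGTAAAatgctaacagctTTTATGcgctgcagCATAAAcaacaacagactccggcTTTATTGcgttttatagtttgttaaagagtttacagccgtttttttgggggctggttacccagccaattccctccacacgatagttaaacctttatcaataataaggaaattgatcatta
Hoxa7: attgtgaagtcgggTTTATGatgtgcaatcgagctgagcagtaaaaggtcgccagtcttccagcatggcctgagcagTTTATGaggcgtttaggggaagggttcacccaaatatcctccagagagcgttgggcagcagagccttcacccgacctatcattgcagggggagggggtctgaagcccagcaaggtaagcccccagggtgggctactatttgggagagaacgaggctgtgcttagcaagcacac
Hoxa13: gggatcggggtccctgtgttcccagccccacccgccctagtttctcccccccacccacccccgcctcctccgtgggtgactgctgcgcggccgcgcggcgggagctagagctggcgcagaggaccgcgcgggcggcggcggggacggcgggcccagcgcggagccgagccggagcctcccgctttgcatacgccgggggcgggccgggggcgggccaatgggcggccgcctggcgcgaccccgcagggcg
Hoxd13: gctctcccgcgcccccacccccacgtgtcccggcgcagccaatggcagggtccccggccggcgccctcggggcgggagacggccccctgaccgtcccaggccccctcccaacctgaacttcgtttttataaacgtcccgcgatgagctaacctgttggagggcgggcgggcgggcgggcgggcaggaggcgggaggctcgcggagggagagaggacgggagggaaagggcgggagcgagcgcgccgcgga

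TTTATG was in 5 of the 24 Hox windows, those of Hoxa7, Hoxb8, Hoxd3, Hoxd4 and 1 of 2 for Hoxd11, against 10.8% of 32851 mouse promoters of this length. CAATAAA was in 1 of 24, against 4.20% of all, and TCGTAAA in 1 of 24, against 0.478%. The Hoxa13 window was 80.0% G or C with 35 CpG pairs and that of Hoxd13 74.4% with 31, where Hoxb8 had 44.4% with 12 and Hoxa7 54.8% with 7. The median was 12.5 CpG pairs in the Hox windows and 6 in all windows. A match describes letters in these windows and not a site in use. Hoxb8 itself, chosen after its window was read, had 0.142, 1.64 and 10.8 FPKM in AKK, 0.239, 1.23 and 8.70 FPKM in Model, and 4.23, 8.48 and 13.8 FPKM in Control (lowest, median and highest), with overlapping groups.

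The spread between libraries of the same group was wide across the family. On the log2(FPKM + 1) scale the pooled within-group SD had a median of 0.74 over the 23 tested Hox genes and 0.22 over all 14007 tested genes, whose 95th percentile was 0.74. By cluster the medians were 0.73 for HoxA, 0.80 for HoxB and 0.74 for HoxD. Hoxb13 had an SD of 1.99, Hoxa13 of 1.44 and Hoxb6 of 1.34, and 99.9%, 99.1% and 98.7% of tested genes had the same SD or less. Hoxb2, known for hindbrain patterning, had the smallest, 0.25, and 57.6% of tested genes lay at or below it. In all, 12 of the 23 lay above the 95th percentile.

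**Figure D3:**
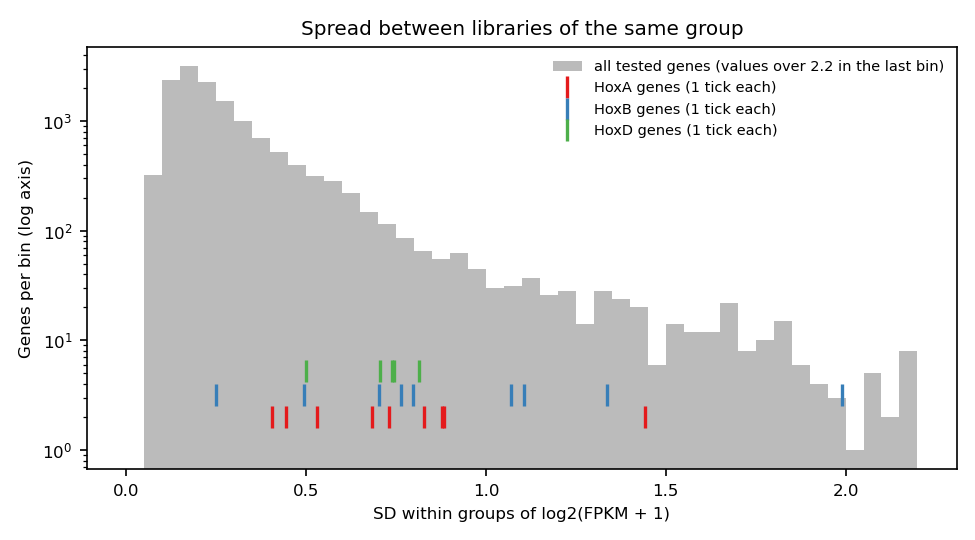
Within-group SD of log2(FPKM + 1) for all 14007 tested genes (grey histogram, log axis of genes per bin), with a tick for each of the 23 tested Hox genes by cluster. Most Hox ticks sit in the right tail, from Hoxb2 at 0.25 to Hoxb13 at 1.99.

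With this spread, no Hox gene differed between groups at an adjusted p under 0.05 in edgeR's quasi-likelihood test (Benjamini-Hochberg over all tested genes). In AKK against Model 0 of 23 were called, where 0.0214% of all tested genes were called. In AKK against Control 0 of 23 were called, with 6.13% of all tested genes called, and in Model against Control 0 of 23 with 20.0% called. At an unadjusted p under 0.05 the counts were 0, 4 and 1 of 23, in the same order, where 6.65%, 25.3% and 35.1% of all tested genes passed, so that the shares of Hox genes were not above those of all genes. DESeq2 called 0, 1 and 0 in that order, and edgeR with no filter on low values called 0 of all 38 in each comparison. For 0 of the 23 did the groups have ranges that did not overlap, where 0.8%, 8.62% and 2.91% of all tested genes had none in AKK against Model, AKK against Control and Model against Control. Without Model_1337 and Control_2286 edgeR again called 0 Hox genes in each comparison, with 22 tested. That fit called 2, 1095 and 1481 of 13866 tested genes in AKK against Model, AKK against Control and Model against Control.

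The sizes of the fitted differences are given as a description. In AKK against Control 15 of 23 Hox genes had a log2 difference of 1 or more in size, against 5.01% of all tested genes. In Model against Control it was 6 of 23, against 7.93%, and in AKK against Model 2 of 23, against 1.4%. Their standard errors had medians of 0.57, against 0.16 over all tested genes in each comparison.

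In AKK against Control, where 3.69% of all tested genes were called higher and 2.44% lower, the sign of the difference followed the cluster. All 9 tested HoxA genes had a positive log2 difference with a median of 1.15, 8 of 9 HoxB genes a negative one with a median over the cluster of -1.17, and all 5 HoxD genes a negative one with a median of -1.03, while the median over all tested genes was -0.01. Genes of a cluster moved together within groups, with a median r of 0.86 in HoxA, 0.85 in HoxB without Hoxb13 and 0.78 in HoxD. Counts of signs, here and in the other comparisons, are therefore not separate observations. Hoxb4 (ENSMUSG00000038692, chromosome 11, 96318267 to 96321638), known for blood stem cells, came closest to a call, with 0.725, 1.11 and 3.38 FPKM in AKK and 1.71, 2.91 and 5.53 FPKM in Control (lowest, median and highest) and overlapping ranges. Its log2 difference was -1.17 ± 0.42 (SE, edgeR adjusted p = 0.0945), and DESeq2 called it lower in AKK at -1.18 (adjusted p = 0.0351), where it called 6.57% of all genes lower, with 0.0127 to 0.573 over all settings run for it. Hoxa11, which acts in limb, kidney and uterus, had 1.15 ± 0.45 (edgeR adjusted p = 0.126) and Hoxa10 1.16 ± 0.56 (edgeR adjusted p = 0.204). Hoxa13 was at 1.53 ± 0.96 (edgeR adjusted p = 0.331), Hoxb6 at -1.76 ± 0.88 (edgeR adjusted p = 0.225) and Hoxb13 at 3.71 ± 1.99 (edgeR adjusted p = 0.254). With a library left out Hoxb13 ranged from 1.31 without AKK_1309 to 9.34 without Control_2285. In the latter fit 4 of the 5 Control libraries left were at 0, and the Control level rests on 11 counts in Control_2289. Hoxa13 ranged from 1.25 without Control_2286 to 2.52 without Control_2285, and Hoxb6 from -2.53 without AKK_1303 to -1.51 without AKK_1309.

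Calls in AKK against Control depended on how single libraries were weighted. AKK_1303 had the lowest Hoxa13 and the highest Hoxb6 of its group. Without it 3 of 22 tested genes were called lower in AKK by edgeR, where 1.82% of all tested genes were. They were Hoxb4 at -1.602 (edgeR adjusted p = 0.0276), Hoxb5 at -1.98 (edgeR adjusted p = 0.0452) and Hoxd10. Hoxd10 then passed the filter through Model and Control libraries alone, with the other AKK libraries at 0.247 to 0.680 FPKM. Its difference of -2.69 is therefore given as a description. With a weight fitted for each library in limma voom, 16 of 23 were called, 7 HoxA genes higher and 5 HoxB and 4 HoxD genes lower. The same weights gave calls for 23.2% of all tested genes, 12.5% higher and 10.7% lower. Examples were Hoxa7 at 1.91 (limma adjusted p = 0.00725), Hoxa13 at 3.00 (limma adjusted p = 0.0470) and Hoxb6 at -2.71 (limma adjusted p = 0.0176). Over all settings run for each, the adjusted p was 0.00707 to 0.690 for Hoxb5, 0.0185 to 0.755 for Hoxd10, 0.00725 to 0.573 for Hoxa7, 0.0470 to 0.753 for Hoxa13 and 0.0176 to 0.709 for Hoxb6. The weights ranged from 0.110 for Model_1337 to 3.08 for AKK_1306.

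Model against Control shares its Control libraries with the comparison above, so both sets of values move with them. Of all tested genes 12.4% were called higher and 7.6% lower here. The cluster medians were 0.69 for HoxA, with 9 of 9 positive, -0.69 for HoxB, with 7 of 9 negative, and -0.25 for HoxD, with 4 of 5 negative, beside a median of 0.00 over all tested genes. Hoxb13 had the largest difference, 4.59 ± 2.07 as a log2 value with its SE (edgeR adjusted p = 0.124). It was 2.42 without Model_1340. Without Control_2285 it was called, as were 9.91% of all tested genes in this direction. There it passed the filter through AKK and Model libraries alone, so the fitted value of 10.21 is given as a description. In that fit 4 of the 5 Control libraries left were at 0, and the Control level rests on 11 counts in Control_2289. The adjusted p of Hoxb13 was 0.0204 to 0.731 over all settings run for it, lowest in edgeR without Control_2285. Hoxa13 was at 1.16 ± 0.95 (edgeR adjusted p = 0.399), with 0.84 without Model_1341 and 2.16 without Control_2285, and Hoxb6 at -1.46 ± 0.88 (edgeR adjusted p = 0.241).

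Between AKK and Model the cluster medians were 0.38 for HoxA, with 8 of 9 positive, -0.20 for HoxB, with 7 of 9 negative, and -0.77 for HoxD, with 4 of 5 negative, and the median over all tested genes was -0.02. The lowest adjusted p of any Hox gene was 0.732, for Hoxb2 at -0.58 ± 0.28 (edgeR). Hoxa13 stood at 0.37 ± 0.94 (edgeR adjusted p = 0.949), so that a difference of either sign lay within its error. Hoxb13 was at -0.87 ± 1.78 (edgeR adjusted p = 0.929), and at 1.27 without Model_1340.

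**Figure D4:**
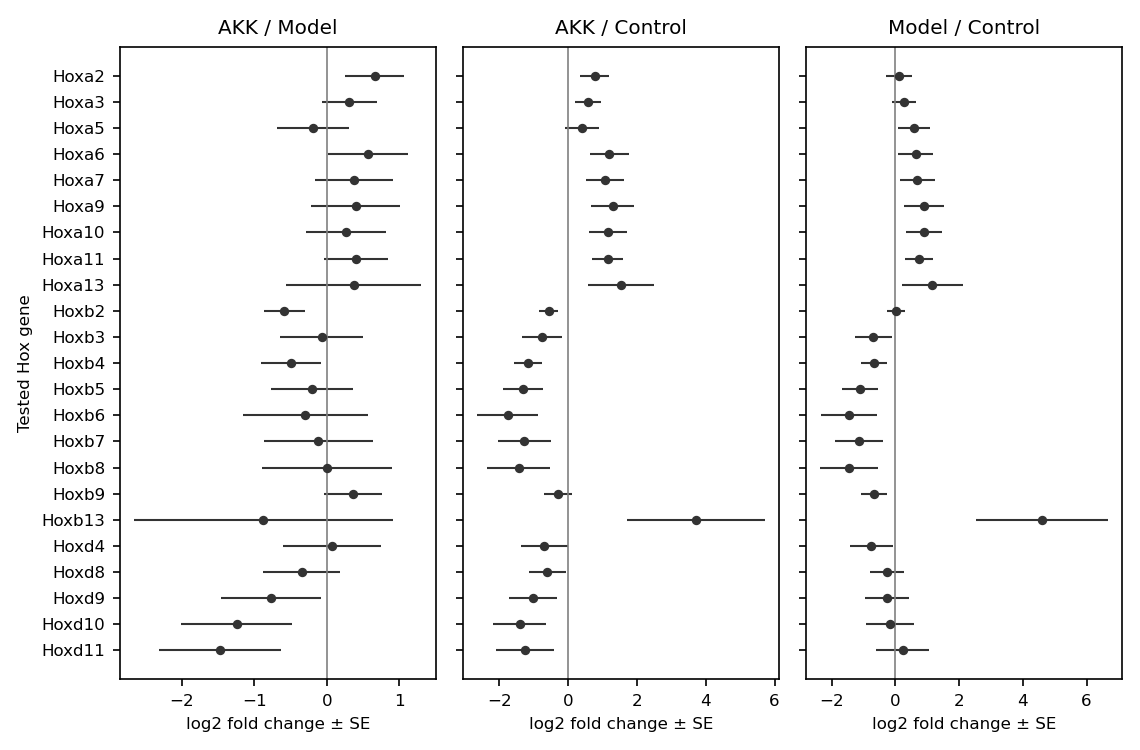
Fitted log2 fold change with its SE for the 23 tested Hox genes in AKK / Model, AKK / Control and Model / Control (edgeR, 6 libraries per group). HoxA points lie right of 0 and most HoxB and HoxD points left of 0 in both comparisons with Control, and in none is a gene called.

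Across libraries HoxA levels ran against those of most HoxB and HoxD genes. Over all 18 libraries the level of Hoxa13, on the log2(FPKM + 1) scale, was set against each of the other 22 tested genes, a family chosen after the data were seen except for the pair with Hoxb13. Over the 18 libraries Hoxa13 ran from 0.230 to 22.2 FPKM, but within Control its values were split. Control_2285 and Control_2289 were at 18.9 and 10.9 FPKM and the other Control libraries at 0.230 to 0.877 FPKM, so r within Control rests largely on that split. Pearson's r was positive for 9 genes, the 8 other tested HoxA genes and Hoxb13, each with an adjusted p under 0.05 in a permutation test with 100000 resamples. It was negative for 13 genes, of which 7 HoxB and 5 HoxD genes passed and Hoxb9 (r = -0.31, permutation adjusted p = 0.212) did not. For Hoxb9 Spearman's rho was -0.61 (permutation adjusted p = 0.00879), and r was -0.70 without Model_1337 and Control_2286 (permutation p = 0.00277). Genes outside the Hox family were not correlated with Hoxa13, so the share of all tested genes that would pass is not known. The sign of r was the same within AKK, within Model and within Control, but for Hoxa2 it was near 0 in AKK (r = 0.06, rho = -0.60, exact permutation p = 0.935, n = 6). In AKK only AKK_1303 was low in Hoxa13, with the other 5 libraries at 13.1 to 21.8 FPKM, and Spearman's rho with the 8 HoxA genes there was -0.60 to 0.43.

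Hoxa10 had r = 0.94 with Hoxa13 (Spearman's rho = 0.88, permutation adjusted p = 3.1e-05 and 7.3e-05, n = 18). Within groups r was 0.85 in AKK, 0.90 in Model and 0.97 in Control, with exact permutation p of 0.0583, 0.0139 and 0.0361 (n = 6 each), and rho was 0.43, 0.89 and 0.89 in the same order. Hoxb6 had r = -0.82 (rho = -0.88, permutation adjusted p = 0.000286 and 7.3e-05), and within AKK, Model and Control r was -0.82, -0.84 and -0.90 with exact permutation p of 0.00139, 0.0458 and 0.0625, and rho of -1.0, -0.71 and -0.54. Without the 2 libraries farthest from the median of Hoxa13, Control_2286 and Control_2287, r was 0.91 for Hoxa10 and -0.79 for Hoxb6. Without Model_1337 and Control_2286 it was 0.93 and -0.85.

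Hoxb13 had the opposite sign to the other 8 tested HoxB genes. Its r with Hoxa13 was 0.65 (rho = 0.80, permutation adjusted p = 0.00364 and 0.00034, n = 18), 0.60 without the 2 farthest libraries (permutation p = 0.0125) and 0.67 without Model_1337 and Control_2286 (permutation p = 0.00291). Within groups it was 0.63 in AKK, 0.57 in Model and 0.76 in Control, with exact permutation p of 0.171, 0.250 and 0.0333, so that 1 of 3 groups passed alone, and rho was 0.94, 0.54 and 0.85. Hoxd13 was above 0.101 FPKM in 3 libraries and was not correlated for that reason. Prac1, a neighbour of Hoxb13, was not analysed here.

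**Figure D5:**
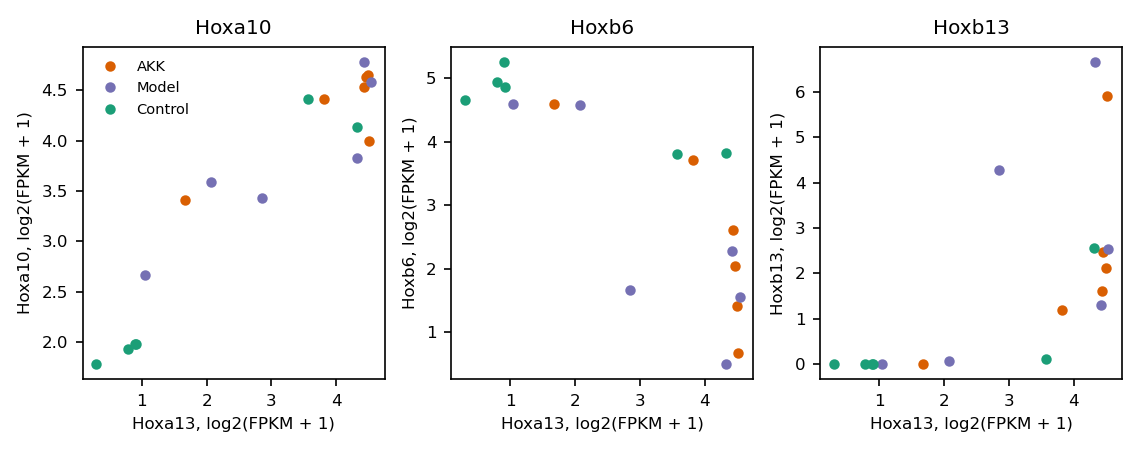
Hoxa10, Hoxb6 and Hoxb13 against Hoxa13 in the 18 libraries, both axes log2(FPKM + 1), coloured by AKK, Model and Control. Hoxa10 climbs with Hoxa13 (r = 0.94), Hoxb6 falls away (r = -0.82), and Hoxb13 is at 0 or 0.0418 FPKM in the 7 libraries with the lowest Hoxa13.

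After each group's mean was removed, the pairs were described one by one, with no test because the pairs share their libraries. All 36 pairs within HoxA had a positive r, with a median of 0.86, and all 10 pairs within HoxD, with a median of 0.78. Within HoxB 28 of 36 pairs were positive (median 0.62), and the 8 negative ones were those of Hoxb13. Of the pairs of a HoxA with a HoxB gene 68 of 81 were negative (median -0.36), and 68 of 72 without Hoxb13 (median -0.40). All 45 pairs of a HoxA with a HoxD gene were negative (median -0.65), and 39 of 45 pairs of a HoxB with a HoxD gene, Hoxb13 included, were positive (median 0.63). Hoxa3 shares its span with Hoxa4, Hoxa5 and Hoxa6, Hoxd3 with Hoxd4, and Hoxc5 with several HoxC genes, so reads in these spans could be split between them.

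Genes in or next to the HoxA cluster, toward its group 13 end, had high and low libraries in common with Hoxa13. Evx1, a homeobox gene beyond Hoxa13, was at 2.00, 0.0164, 0.893, 1.74, 0.969 and 1.73 FPKM in the AKK libraries in the order above. The Model libraries had 1.53, 0.175, 0.0926, 0.127, 1.33 and 2.42 FPKM, and the Control libraries 1.27, 0, 0, 0, 0.571 and 0 FPKM. Its lowest AKK library, AKK_1303, was also the lowest for Hoxa13. Hottip, a long non-coding RNA gene transcribed away from Hoxa13, reached 0.0297, 2.74 and 8.53 FPKM in AKK, 0, 1.99 and 5.22 FPKM in Model, and 0, 0.0113 and 4.74 FPKM in Control (lowest, median and highest). Hoxa11os, antisense to Hoxa11, was at 3.39, 26.9 and 33.2 FPKM in AKK, 1.68, 16.8 and 30.3 FPKM in Model, and 0.553, 1.64 and 27.0 FPKM in Control. The libraries mark strand, but no source used here gives the strand setting of the counting, so reads of Hoxa11 and Hoxa11os cannot be told apart with certainty. None of the 3 was called in a comparison (edgeR adjusted p = 0.277 to 0.975).

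Genes that act with or on Hox genes were read from lists chosen with earlier results of these data known. In AKK against Model 0 genes of any list were called, where 0.0214% of all tested genes were. Of 7 tested cofactors of the MEIS and PBX families, which bind DNA with Hox proteins, 2 were called higher in Model than in Control, Meis2 at 1.28 ± 0.35 on the log2 scale (edgeR adjusted p = 0.0193) and Pbx3 at 0.63 ± 0.17 (edgeR adjusted p = 0.0202). None was called in AKK against Control. Of all tested genes 12.4% were called higher in Model against Control, and 6.13% were called in AKK against Control. In Model_1337 Meis2 reached 7.12 FPKM, while 1.25 to 2.05 FPKM covered the remaining Model libraries. Without Model_1337 and Control_2286 Meis2 was at 0.58 ± 0.17 (edgeR adjusted p = 0.0417), and Pbx3 was no longer called, at 0.56 (edgeR adjusted p = 0.0757). With 1 library left out the call of Pbx3 was lost without Control_2286 or Control_2288.

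Of 21 tested Polycomb genes, whose products keep silent Hox genes silent, 2 were called higher and 3 lower in Model against Control. Of all tested genes 12.4% were called higher and 7.6% lower there. In AKK against Control 1 Polycomb gene was called higher and 1 lower, where 3.69% and 2.44% of all tested genes were. Ezh2, the H3K27 methyltransferase, fell by 0.57 ± 0.10 on the log2 scale in Model (edgeR adjusted p = 0.00254) and by 0.36 ± 0.10 in AKK (edgeR adjusted p = 0.0379), both against Control. Cbx6, a chromodomain subunit, rose by 0.68 ± 0.13 in Model (edgeR adjusted p = 0.00361) and by 0.50 ± 0.13 in AKK (edgeR adjusted p = 0.0311). Of 12 Trithorax and H3K27 demethylase genes, which counteract Polycomb, 1 was called, Psip1, higher in Model than in Control by 0.42 ± 0.14 (edgeR adjusted p = 0.0450). With Model_1337 and Control_2286 left out, Ezh2 was called in Model, at -0.497 (edgeR adjusted p = 0.00944), and not in AKK, at -0.31 (edgeR adjusted p = 0.0596), while Cbx6 was called in both, at 0.48 in Model and 0.44 in AKK (edgeR adjusted p = 0.00458 and 0.00644). Psip1 was then not called, at 0.29 (edgeR adjusted p = 0.156). With each of the 18 libraries left out in turn, the calls in AKK were made in 8 fits for Ezh2 and in 10 for Cbx6, and that of Psip1 in 4. The summed Polycomb level was 114 to 119 FPKM in AKK, 96.2 to 131 FPKM in Model and 110 to 120.0 FPKM in Control.

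Retinoic acid turns on anterior Hox genes in the embryo. Of its pathway genes, 2 were called lower in AKK against Control and 1 of these also in Model against Control. One was Crabp1, a retinoic acid-binding protein gene that passed the filter through 2 Model and 4 Control libraries and 0 AKK libraries, so its difference is given as a description, -2.85 in AKK on the log2 scale. It fell below the filter without Model_1337 and Control_2286. The receptor gene Rxra fell by 0.34 ± 0.10 in AKK (edgeR adjusted p = 0.0421) and by 0.32 ± 0.10 in Model (edgeR adjusted p = 0.0277), both against Control. Of all tested genes 2.44% were called lower in AKK against Control and 7.6% in Model against Control. Rxra was called in neither without Model_1337 and Control_2286 (edgeR adjusted p = 0.0616 and 0.0644).

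Of 15 tested factors of gut regions 0 were called in AKK against Control, where 6.13% of all tested genes were. In Model against Control 2 were called higher and 1 lower, where 12.4% and 7.6% of all tested genes were. The mesenchymal factor genes Foxf1 and Foxf2 rose by 0.55 ± 0.14 and 0.43 ± 0.12 (edgeR adjusted p = 0.0132 and 0.0213), and Hnf4g, an epithelial nuclear receptor gene, fell by 1.23 ± 0.37 (edgeR adjusted p = 0.0294, chosen after its value was seen). With Model_1337 and Control_2286 left out all 3 were short of a call, Foxf1 at 0.37 (edgeR adjusted p = 0.0505), Foxf2 at 0.38 (edgeR adjusted p = 0.0742) and Hnf4g at -0.75 (edgeR adjusted p = 0.0521), and leaving out Control_2286 alone ended the calls of Foxf2 and Hnf4g, as leaving out Control_2287 did for Foxf2. Without Model_1337 and Control_2286, 1 of the 15 factors was called higher in AKK against Control, as were 657 of 13866 tested genes. The Hox regulators Cdx1 and Cdx2 were not called. Cdx2 was at 55.9, 83.8 and 93.6 FPKM in AKK, 0.904, 77.8 and 101 FPKM in Model, and 91.0, 111 and 121 FPKM in Control (lowest, median and highest), with log2 differences of -0.54 ± 0.59 in AKK against Control (edgeR adjusted p = 0.591) and -0.77 ± 0.59 in Model against Control (edgeR adjusted p = 0.366). Cdx1 was at 144, 154 and 166 FPKM in AKK, 18.9, 152 and 154 FPKM in Model, and 135, 154 and 182 FPKM in Control. The lowest value of each was that of Model_1337. With Model_1337 and Control_2286 left out the difference of Cdx2 in Model against Control was -0.47 ± 0.32 (edgeR adjusted p = 0.351) and in AKK against Control -0.50 ± 0.30 (edgeR adjusted p = 0.302), and Cdx1 was at -0.11 and -0.12 (edgeR adjusted p = 0.550 and 0.540).

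Markers of gut regions and of cell types also differed between the groups, and their part in the Hox differences was not tested. Of the distal colon markers Scnn1g, a subunit of the epithelial sodium channel, passed the filter through 3 AKK and 3 Model libraries and 0 Control libraries, so its levels are given as a description. It had 0.0359, 0.757 and 1.99 FPKM in AKK, 0.0763, 0.776 and 3.61 FPKM in Model, and 0, 0.0455 and 0.184 FPKM in Control. Of 5 tested small intestine markers Fabp6 was called lower, at -4.68 ± 1.23 in AKK (edgeR adjusted p = 0.0338) and -4.18 ± 1.20 in Model (edgeR adjusted p = 0.0238), where Control_2286 held most of the Control level. Without Control_2286 and Model_1337 it was not called, at -1.38 ± 0.65 in AKK (edgeR adjusted p = 0.186) and -0.87 ± 0.68 in Model (edgeR adjusted p = 0.425). Leaving out Control_2286 alone ended both calls, and that in AKK was also lost without AKK_1302, AKK_1305, AKK_1306, AKK_1309 or AKK_1310. Among all tested genes, 2.44% were called lower in AKK and 7.6% in Model, both against Control. The summed small intestine markers were 94.2 to 320.1 FPKM in AKK, 4.34 to 331 FPKM in Model and 127 to 872 FPKM in Control.

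Fibroblast markers summed to 504 to 753 FPKM in AKK, 263 to 959 FPKM in Model and 236 to 299 FPKM in Control, with 7 of 9 called higher against Control in both AKK and Model. Col3a1, a fibrillar collagen gene, rose by 1.603 ± 0.21 in AKK (edgeR adjusted p = 0.0013) and by 1.29 ± 0.21 in Model (edgeR adjusted p = 0.00188). Col1a1 followed in AKK at 1.72 and Lum in Model at 1.62. Among all tested genes, 3.69% were called higher in AKK and 12.4% in Model, both against Control. Of 6 endothelial markers 3 were called higher in AKK (Kdr at 0.67 and Vwf at 0.99) and 5 in Model (Pecam1 at 1.14 and Cdh5 at 1.15), both against Control, with sums of 21.4 to 34.7 FPKM in AKK, 17.4 to 69.3 FPKM in Model and 11.8 to 20.7 FPKM in Control. Of 6 B and plasma cell markers 5 were called higher in AKK (Mzb1 at 2.63 and Jchain at 1.93) and 6 in Model (Mzb1 at 3.19 and Cd79a at 3.43), with sums of 547 to 1238, 148 to 2230 and 133 to 256 FPKM in the same order of groups. Of 9 tested smooth muscle markers 0 were called in AKK and 4, led by Tagln at 1.20 and Cnn1 at 1.11, were called higher in Model, both against Control. Their sum was 1486 to 2251 FPKM in AKK, 1418 to 3932 FPKM in Model and 720 to 2581 FPKM in Control, where the highest was Control_2285, a library with high Hoxa13, and Control_2289, the other one, was at 1409 FPKM. The counts called higher in AKK and in Model without Model_1337 and Control_2286 were 8 and 7 for fibroblast, 5 and 4 for endothelial, 4 and 6 for B and plasma cell and 0 and 1 for smooth muscle markers, with Tagln called (edgeR adjusted p = 0.0359) and Cnn1 not (edgeR adjusted p = 0.109). That fit called 657 of 13866 tested genes higher in AKK and 857 higher in Model, both against Control.

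Epithelial, enteric neuron, glia, fat, skeletal muscle and urogenital markers had 0 calls in each comparison with all libraries, with Krt8, Vip, Gfap, Cidec, Ckm and Upk1a their genes of highest median level. Beside them, 0.0214%, 6.13% and 20.0% of all tested genes were called in AKK against Model, AKK against Control and Model against Control. Without Model_1337 and Control_2286, 3 epithelial markers were called lower in AKK against Control, as were 438 of 13866 tested genes. Sums were 21.98 to 40.1 FPKM in AKK, 33.4 to 49.7 FPKM in Model and 22.7 to 48.0 FPKM in Control for enteric neuron markers, and 3.72 to 6.56, 5.26 to 14.3 and 3.74 to 6.58 FPKM for glia markers. Fat markers summed to 4.86 to 22.4 FPKM in AKK, 4.58 to 30.2 FPKM in Model and 7.93 to 48.1 FPKM in Control, and urogenital markers to 5.47 to 8.11, 1.33 to 8.45 and 3.77 to 10.9 FPKM. Stomach and squamous markers, led by Atp4a and Krt13, had 0 tested members, and outside Model_1337 their sums stayed at or below 0.502 and 1.79 FPKM. Skeletal muscle markers reached 310 FPKM in Model_1337 and at most 17.2 FPKM elsewhere.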

How the data were processed

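The authors deposited 1 table with an FPKM and an estimated count per gene and library, per the file headers. The tools named, per the submitters' processing notes, are StringTie 2.1.6, HISAT2 2.2.1 and cutadapt 1.9, with build mm10, and also DESeq2 and edgeR without a role. No source used here gives the annotation release. The estimated counts were whole numbers. Values of 4, 8 and 12 occurred 2.36, 1.74 and 1.36 times as often as adjacent values, so dividing by 4 was an alternative. Counting error may be larger than the totals of 53873744 to 82589848 imply, which was not tested.

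Genes with at least 1 FPKM in at least 6 of 18 libraries (14007) were tested with edgeR 4.0.16 (TMM, quasi-likelihood, robust) in 1 model with a term for each group, in R 4.3.3, adjusted by Benjamini-Hochberg. The plan covered a table of counts or of FPKM, and the count test was used. Alternatives were DESeq2 1.42.0, limma 3.58.1 on log2(FPKM + 1) or with voom library weights, other filters and scalings, and leaving out libraries. Correlations used Python 3.11.15. The edgeR step was tested on simulated data.

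Members and lists were chosen with earlier results of these data known. Genes named were called Hox genes, group 13 genes, the gene of highest median in each cluster, and per list the 2 called genes of smallest adjusted p, or the gene of highest median. Others were named after their values were seen, and some genes are not reported here. The library numbers are not shared between groups, and the labels give no batch.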

Additional observations from a re-analysis of the deposited data

Results flagged for a closer look

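Dixon's criterion was applied to log2(FPKM + 1) in 69 sets of 6 libraries (23 tested genes in 3 groups). In 7 sets a library lay far from the other 5. Chance flags about 1 in 20 groups, but genes of a cluster moved together, so the 69 sets are not independent. AKK_1303 made up 5 of the 7 flags, which are not 5 separate events. It was the lowest AKK library for Hoxa5 at 5.08 FPKM (the others at 6.51 to 7.37), for Hoxa9 at 4.46 FPKM (9.26 to 11.8) and for Hoxa13 at 2.19 FPKM (13.1 to 21.8). It was the highest for Hoxd10 at 4.17 FPKM (0.247 to 0.680) and for Hoxd11 at 1.15 FPKM (0.0392 to 0.331). Control_2285 stood apart for Hoxb13 at 4.88 FPKM, with the other Control libraries at 0 to 0.0787 FPKM, and Control_2668 for Hoxb2 at 2.15 FPKM, with the others at 0.864 to 1.25 FPKM.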

How the results depend on the processing

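No paired analysis was possible because the groups share no library numbers. Of 69 comparisons of a tested Hox gene, 53 kept their sign under every alternative that could be fitted and 16 did not, 10 in AKK against Model, 1 in AKK against Control and 5 in Model against Control. The lowest adjusted p of a reversed value was 0.428, so 0 reversals were called, and their cause was not tested. Hoxd11 had fewer alternatives, since it was below the filter in 8 of them. edgeR without robust shrinkage and the settings that left out Model_1337, Control_2286 or Model_1341 together were chosen after seeing the data. Libraries of high total are the 4 with over 70000000 counts, AKK_1306, AKK_1309, AKK_1310 and Model_1341.

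The Hox genes called in AKK against Control numbered 0 in edgeR, 1 with DESeq2, 16 with limma voom library weights and 0 to 3 with a library left out. In Model against Control they numbered 0, and 0 to 1 with a library left out. All genes called in AKK against Model were 3, and 0 with both groups alone, 12 with DESeq2, 12 with library weights, 1 without Model_1337, Control_2286 and Model_1341, and 0 without libraries of high total. In AKK against Control they were 859, and 2697 with both groups alone, 1841 with DESeq2, 3248 with library weights, 1545 without those 3 libraries, 482 with no filter, 52 without libraries of high total and 287 to 2090 with a library left out: 345 without AKK_1302, 511 without AKK_1305, 336 without AKK_1306, 315 without AKK_1309, 355 without AKK_1310, 287 without Control_2286, 307 without Control_2288, 571 without Control_2289, 1564 without Control_2668 and 2090 without Model_1337. In Model against Control they were 2797, and 903 with both groups alone, 1843 with limma on log2(FPKM + 1), 1512 with library weights, 1481 without Model_1337 and Control_2286, and 1717 (without Control_2286) to 3394 with a library left out. The split of calls in AKK against Control was 517 higher and 342 lower, against 568 and 84 with limma on log2(FPKM + 1), 655 and 79 on log2(FPKM + 0.1), and 370 and 112 with no filter. The r of Hoxa13 with Hoxb13 was 0.63 within AKK and 0.57 within Model, no longer past the threshold with 6 libraries.

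In AKK against Model, leaving out 1 library moved the log2 difference between -0.39 and 0.22 for Hoxa5, -3.27 and 1.27 for Hoxb13, -0.60 and 0.28 for Hoxb3, -0.86 and 0.0469 for Hoxb5, -1.06 and 0.24 for Hoxb6, -0.77 and 0.37 for Hoxb7, -0.85 and 0.56 for Hoxb8, -0.74 and 0.58 for Hoxd4, and -0.90 and 0.0360 for Hoxd8. Without libraries of high total it was 0.14 for Hoxa5, 0.39 for Hoxb3, 0.52 for Hoxb5, 0.28 for Hoxb6, 0.45 for Hoxb7 and 0.12 for Hoxd8. With library weights it was 0.24 for Hoxa5, 3.77 for Hoxb13, -1.40 for Hoxb8, -0.0679 for Hoxb9 and -1.42 for Hoxd4. On log2(FPKM + 0.1) limma gave 0.15 for Hoxa5, 0.0726 for Hoxb13, 0.0367 for Hoxb6 and -0.39 for Hoxd4, and on log2(FPKM + 1) 0.10 for Hoxa5 and -0.12 for Hoxd4. Without Model_1337, Control_2286 and Model_1341 it was 0.14 for Hoxa5, -0.37 for Hoxb8 and -0.19 for Hoxd4, and for Hoxb8 it was -0.22 without Model_1337 and Control_2286 and -0.001 with the filter at 0.1 FPKM.

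In AKK against Control Hoxd4 was at 0.0809 without libraries of high total. In Model against Control, leaving out 1 library moved Hoxa2 between -0.31 and 0.48, Hoxa3 between -0.0144 and 0.52, Hoxb2 between -0.12 and 0.24, and Hoxd10 between -0.55 and 0.0545. Without libraries of high total Hoxa2 was at -0.31, Hoxa3 at -0.0119, Hoxb2 at -0.12 and Hoxd10 at 0.0336. Without Model_1337, Control_2286 and Model_1341 Hoxa2 was at -0.28 and Hoxb2 at -0.24. Hoxb2 was at -0.0666 without Model_1337 and Control_2286, at -0.0084 with the filter at 0.1 FPKM and at -0.0111 with no filter. Hoxd11 was at -0.14 in limma on log2(FPKM + 0.1) and at -0.22 with library weights.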
